A study of Homo sapiens with 6 samples.

Results

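The 9 genes described here, MKI67, BIRC3, UHMK1, PARP2, ACADVL, NET1, RAB5B, SNAPC2 and C6orf120, had a given transcript as the most abundant in A549 and a different one in H23, a pair of established human lung cancer cell lines. They were taken as a fixed list from 27968 genes, and their 23 annotated transcripts from 70006. RNA came from 3 separate untreated cultures of A549 grown in DMEM with fetal bovine serum and 3 of H23 grown in RPM1640 medium (spelled as labelled) with the same supplement, so line and medium changed together. Total RNA was sequenced as stranded libraries after ribosomal RNA removal, and the study set out to compare the transcriptomes of these lines. The share of a transcript is its percentage of all transcripts of its gene. A gene counted as switched when 1 transcript had the highest share in all 3 A549 libraries and another in all 3 H23 libraries, both shares moved by at least 20 percentage points, and the gene reached 5 TPM (transcript abundance scaled for length and depth) in all 6 libraries. Of 5012 genes at that level with 2 or more transcripts, 208 were switched, or 4.15%.

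The 9 genes were chosen by their shares in this contrast, so shares, transcript levels and gene totals of the 9 genes are given as a description and were not tested. In edgeR's transcript usage test 25.8% of 7539 genes passed an adjusted p of 0.05, and among the switched genes 159 passed. Of the 9 genes 8 passed and RAB5B did not, from the same shares that chose them. With switched genes ordered by whichever leading share changed less, BIRC3 came highest of the 9 genes at 74.8 points, below HIST1H2BK at 93.4 points. The last of the 9 genes was ACADVL at 61.4 points. The next gene outside was RTKN at 61.1 points. HIST1H2BK, HIST1H2BD, PCGF5 and ALDH4A1 ranked above ACADVL and were not on the list.

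Most human genes are read into several transcripts, through alternative start sites, exons that are kept or skipped, and alternative ends. Such transcripts can encode proteins that differ in a stretch of amino acids, can differ only in untranslated parts, or can lack a full reading frame. Which form leads therefore bears on what a gene makes even where its total level is alike. The genes have unrelated roles. MKI67 encodes the proliferation marker Ki-67, BIRC3 an inhibitor of apoptosis, UHMK1 a kinase of splicing factors, PARP2 an enzyme of DNA repair, ACADVL an enzyme of fatty acid oxidation, NET1 an activator of the GTPase RhoA, RAB5B a GTPase of early endosomes and SNAPC2 a subunit of a transcription factor for small nuclear RNA genes.

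Transcripts were compared base by base through GENCODE release 29 transcripts that GENCODE pairs with the same RefSeq identifiers, which was possible for 7 of the 9 genes. In MKI67, PARP2, UHMK1, ACADVL, NET1 and SNAPC2 the leading transcripts differed in coding bases, shown here because they are what a switch adds to or takes from the message. Capitals mark coding bases that the other leading transcript of the gene lacks. Lower case marks neighbouring bases that both hold and that are coding in the form shown. All run 5′ to 3′.
PARP2 NM_005484, H23 lead: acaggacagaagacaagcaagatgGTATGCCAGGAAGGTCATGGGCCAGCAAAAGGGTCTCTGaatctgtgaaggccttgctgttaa
MKI67 NM_002417, A549 lead, start of the added exon: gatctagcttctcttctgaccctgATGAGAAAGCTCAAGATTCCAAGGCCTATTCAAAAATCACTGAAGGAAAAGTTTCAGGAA
NET1 NM_005863, A549 lead: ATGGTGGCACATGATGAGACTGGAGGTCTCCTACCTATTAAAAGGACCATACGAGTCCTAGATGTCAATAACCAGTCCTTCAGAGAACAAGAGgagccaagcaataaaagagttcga
NET1 NM_001047160, H23 lead: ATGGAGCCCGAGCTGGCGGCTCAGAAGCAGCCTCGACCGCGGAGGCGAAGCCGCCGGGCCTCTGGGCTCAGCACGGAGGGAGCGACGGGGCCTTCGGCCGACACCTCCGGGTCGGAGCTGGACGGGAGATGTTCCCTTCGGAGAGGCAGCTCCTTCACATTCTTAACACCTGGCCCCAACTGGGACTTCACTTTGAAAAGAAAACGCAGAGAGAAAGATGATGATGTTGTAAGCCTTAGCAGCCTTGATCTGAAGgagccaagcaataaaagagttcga
ACADVL NM_000018, A549 lead: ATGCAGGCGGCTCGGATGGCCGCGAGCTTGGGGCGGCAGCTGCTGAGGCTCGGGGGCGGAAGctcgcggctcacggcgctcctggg
ACADVL NM_001270447, H23 lead: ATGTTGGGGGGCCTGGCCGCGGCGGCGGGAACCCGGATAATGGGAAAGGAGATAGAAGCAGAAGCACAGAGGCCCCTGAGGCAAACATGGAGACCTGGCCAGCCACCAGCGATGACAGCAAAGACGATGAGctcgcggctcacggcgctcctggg
UHMK1 NM_175866, A549 lead: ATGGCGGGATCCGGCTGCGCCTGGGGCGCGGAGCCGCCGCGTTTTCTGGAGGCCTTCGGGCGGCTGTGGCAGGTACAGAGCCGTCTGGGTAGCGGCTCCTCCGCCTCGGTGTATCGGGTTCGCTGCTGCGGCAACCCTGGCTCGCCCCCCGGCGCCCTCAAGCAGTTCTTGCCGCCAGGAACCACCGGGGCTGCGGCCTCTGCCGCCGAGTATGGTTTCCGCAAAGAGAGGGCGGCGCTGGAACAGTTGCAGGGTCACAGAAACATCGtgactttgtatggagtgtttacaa
UHMK1 NM_001184763, H23 lead: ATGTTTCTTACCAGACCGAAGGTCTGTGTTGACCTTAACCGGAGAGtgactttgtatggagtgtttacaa
SNAPC2 NM_003083, A549 lead: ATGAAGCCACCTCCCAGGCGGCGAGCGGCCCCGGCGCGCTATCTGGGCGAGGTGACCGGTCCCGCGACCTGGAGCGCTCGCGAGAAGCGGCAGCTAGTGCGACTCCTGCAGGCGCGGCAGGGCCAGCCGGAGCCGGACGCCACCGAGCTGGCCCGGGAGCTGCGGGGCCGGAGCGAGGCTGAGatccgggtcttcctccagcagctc
MKI67 and NET1 lie on chromosome 10, UHMK1 on chromosome 1, PARP2 on chromosome 14, ACADVL on chromosome 17 and SNAPC2 on chromosome 19. The PARP2 stretch is an internal run of 39 bases, or 13 codons, in exon 2 of 16. The MKI67 stretch opens exon 7 of 15, which is 1080 bases long, or 360 codons, and keeps the reading frame. NET1, ACADVL and UHMK1 exchange their starts: the capitals of each form begin with its own ATG and run into the same shared sequence. In SNAPC2 the capitals are the start of the reading frame, which NR_030717 lacks. The GENCODE transcript paired with NR_030717 carries a reading frame of 291 bases that starts further on, so the lower-case SNAPC2 bases are not coding there.

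**Figure D1:**
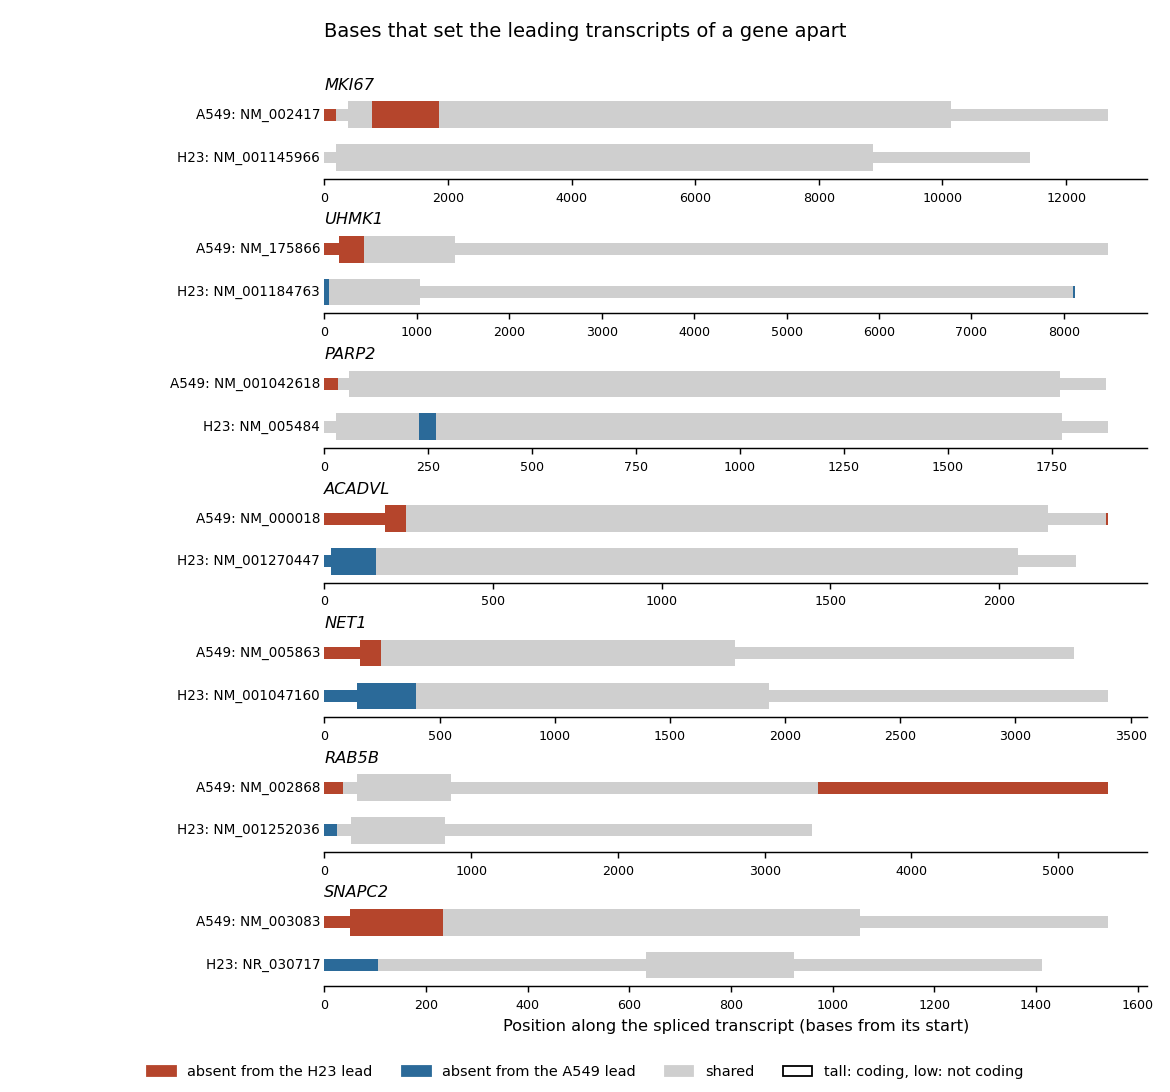
Spliced maps of the leading transcripts of 7 genes, with the A549 lead above the H23 lead, in bases from the transcript start on GENCODE transcripts. Red marks bases absent from the H23 lead and blue bases absent from the A549 lead, tall blocks are coding, and the internal MKI67 exon of 1080 bases and the PARP2 run of 39 bases stand apart from exchanged starts in the other genes. Some marked stretches come from GENCODE lengths that differ from the deposited ones: the long red end in RAB5B, whose H23 transcript is 1977 bases shorter in GENCODE, and starts in MKI67 and PARP2, whose A549 transcripts are 183 and 33 bases longer there. Most other transcripts drawn also differ in length from the deposited ones.

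The A549 libraries held 23399562 to 25348083 estimated read counts and the H23 libraries 29395795 to 42421642. Levels are CPM, counts scaled to library size with TMM factors, given with the SD over 3 libraries. A floor of 3 counts in a library was worth 0.120 to 0.129 CPM in A549 and 0.0706 to 0.1002 CPM in H23. H23 replicate 1 stood apart, with a chi-square per gene of 103 and 130 against the other H23 libraries, where the other replicate pairs gave 3.81 to 5.44. The gene with the highest TPM, RMRP or RNA5-8SN4 in A549, held 11.4 to 13.3% of TPM there, against 1.99 to 2.88% for the highest gene in H23, RNR2 or GAPDH. The part of these genes in the results was not tested. The simple epithelial markers KRT7, KRT8, KRT18, KRT19, EPCAM and CDH1 were all detected in both lines, summing to 5761 to 5975 TPM in A549 and 3982 to 4132 TPM in H23. The 5 distal lung markers summed to 0.620 to 0.860 TPM in A549, with NKX2-1 and SFTPA1 at 0 in all libraries, and to 2.90 to 3.81 TPM in H23, with SFTPA1 and SFTPC at 0. The 3 endothelial markers summed to 0.020 to 0.050 TPM in A549, with PECAM1 and VWF at 0, and to 0.15 to 0.29 TPM in H23. The 4 fibroblast markers summed to 1.44 to 1.78 TPM in A549, with COL1A2 and DCN at 0, and to 4.59 to 7.40 TPM in H23, with DCN at 0.

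**Figure D2:**
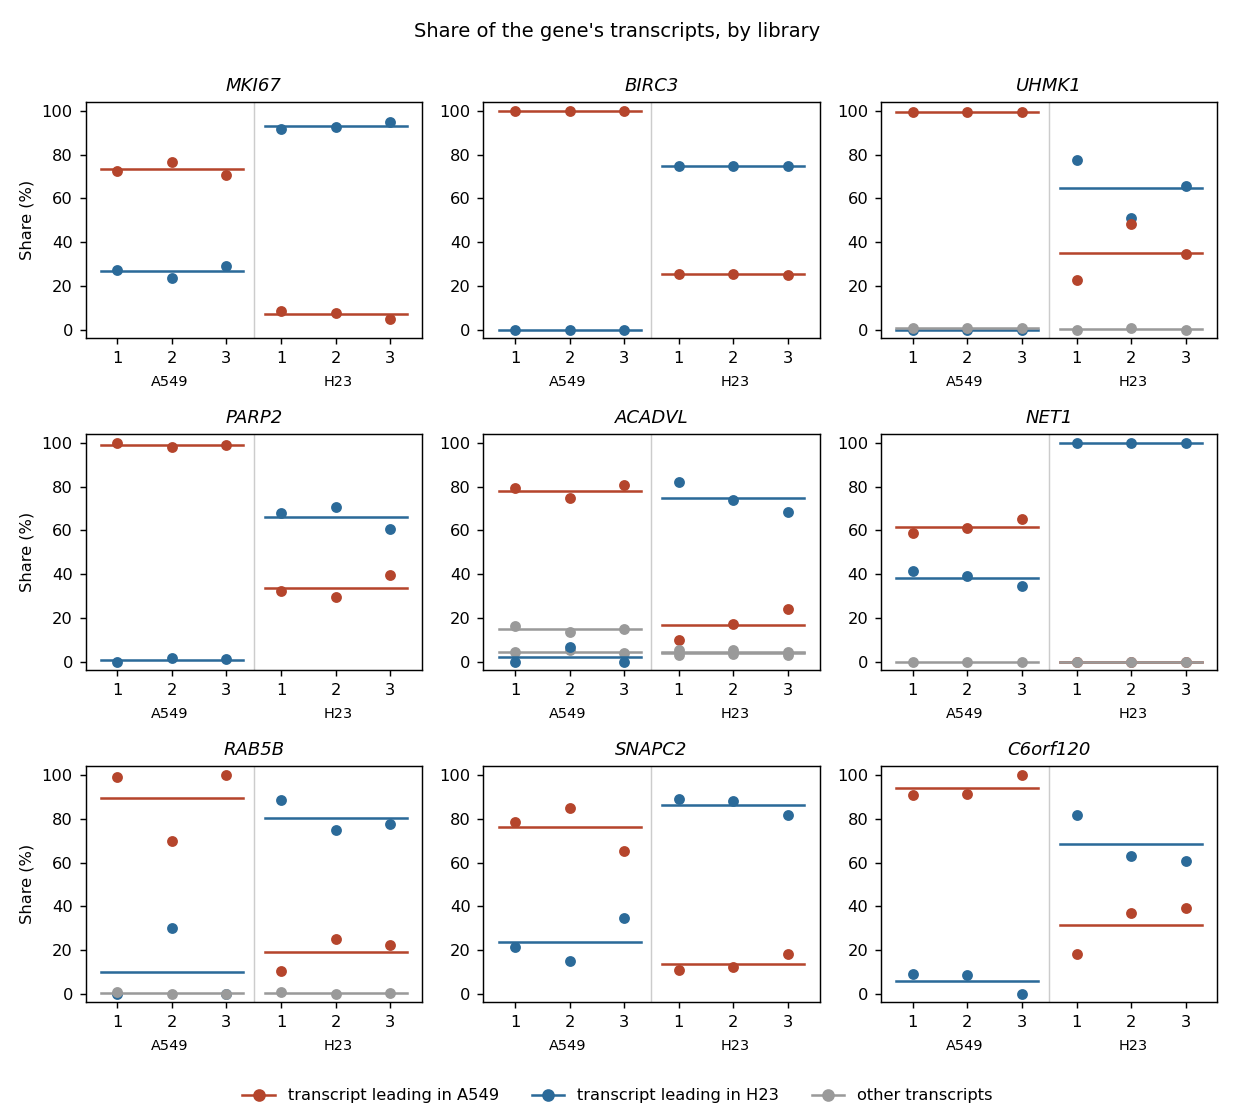
Share of each transcript in percent of its gene (vertical axis) in the 3 A549 and 3 H23 libraries, with points for libraries and lines for line means. In each of the 9 genes the red A549 lead is above the blue H23 lead in all A549 libraries and below it in all H23 libraries, nearest in UHMK1 of H23 replicate 2, at 48.2% and 50.9%.

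MKI67 encodes Ki-67, which coats mitotic chromosomes and is absent from resting cells. The long form with exon 7, NM_002417 of 12495 bases, held 72.6, 76.5 and 70.8% of MKI67 transcripts in the A549 libraries, against 8.38, 7.38 and 4.93% in the H23 libraries. The form without that exon, NM_001145966 of 11415 bases, made up the rest. The long form was thus the main form in every A549 library and a minor form in every H23 library. Its level was 86.5 ± 2.72 CPM in A549 cells against 13.8 ± 8.57 CPM in H23 cells, 6.31 times as high in A549 by counts summed over the libraries of a line. The ratio was 10.01 without H23 replicate 1, where the H23 mean was 9.03 CPM, and 4.81 without H23 replicate 3. The short form stood at 28.9 ± 4.26 CPM in A549 cells against 161 ± 63.0 CPM in H23 cells, 5.61 times as high in H23. That ratio was 4.30 without H23 replicate 1, where the H23 mean was 124 CPM, and 6.50 without H23 replicate 3. The lengths in the deposited tables differ by 1080 bases, the length of exon 7. Summed over its transcripts, the gene stood at 120, 110 and 116 CPM in A549 against 257, 139 and 127 CPM in H23, where replicate 1 was high. The log2 fold of the total, A549 over H23, was -0.60 ± 0.26 (SE), and -0.21 without H23 replicate 1. In these bulk samples fewer cells of a kind and less RNA per cell cannot be told apart.

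BIRC3 encodes cIAP2, a ubiquitin ligase that restrains cell death and the alternative NF-kappaB pathway, and is itself switched on by NF-kappaB. In A549 all BIRC3 transcripts were assigned to NM_001165 of 6912 bases, with a share of 100% in each library, and NM_182962 of 4352 bases had 0 counts. In H23 NM_182962 held 74.7, 74.8 and 74.9% and NM_001165 the remaining 25.3, 25.3 and 25.1%. The split, as estimated from reads divided between the 2 forms, was nearly the same in the 3 H23 libraries. Such closeness does not show the error of that division. The gene total was 103, 116 and 117 CPM in A549, against 151, 54.6 and 51.5 CPM in H23, where replicate 1 was high, and the ranges of the lines overlapped. NM_001165 stood at 112 ± 8.07 CPM in A549 cells against 30.2 ± 20.02 CPM in H23 cells, where the mean without replicate 1 was 18.7 CPM. NM_182962 had 0 counts in A549 and 55.5 ± 36.6 CPM in H23. It was at least 1351-fold higher in H23, taking 3 counts over the group as the floor, which covers counting error only. Without H23 replicate 1 its H23 mean was 34.4 CPM and the bound 825-fold, and the bound was 883-fold without A549 replicate 2, which has 0 counts and only lowers the summed depth. The log2 fold of the total was 0.38 ± 0.41 (SE), 1.07 without H23 replicate 1, and -0.45 on log2(TPM + 1). Both forms are known to encode the same protein, and GENCODE lists both identifiers on 1 transcript, so their bases were not compared.

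UHMK1, also called KIS, is a kinase with a domain like that of the splicing factor U2AF, and it phosphorylates the splicing factor SF1. NM_175866, whose start encodes 268 bases that the H23 lead lacks, held 99.4, 99.5 and 99.4% in the A549 libraries, against 22.6, 48.2 and 34.4% in the H23 libraries. NM_001184763, whose paired GENCODE transcript has a reading frame of 1035 bases against 1257 bases for NM_175866, had 0 counts in A549 and held 77.4, 50.9 and 65.7% in H23. The H23 libraries were mixed to unequal degrees, and the A549 libraries were not. NM_175866 was at 210 ± 9.35 CPM in A549 cells against 31.2 ± 6.04 CPM in H23 cells, 6.86 times as high in A549. NM_001184763 was at 59.4 ± 23.6 CPM in H23, at least 1463-fold higher in H23, and at least 956-fold without A549 replicate 2. The total came to 208, 222 and 204 CPM in A549 cells against 111, 76.7 and 84.95 CPM in H23 cells, without overlap (log2 fold 1.22 ± 0.14, SE).

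PARP2 attaches ADP-ribose chains at DNA breaks. The form without the 13 codons, NM_001042618, held 100, 98.2 and 99% in the A549 libraries, against 32.2, 29.4 and 39.4% in the H23 libraries. The form with them, NM_005484, was near absent in A549, at 0, 0.591 and 0.296 CPM, against 52.1, 46.2 and 39.9 CPM in H23. The short form was at 30.6 ± 1.81 CPM in A549 cells against 22.8 ± 3.46 CPM in H23 cells, 1.32 times as high in A549. The lines thus differed little in the short form and widely in the long form. In all, the gene stood at 30.9 ± 1.82 CPM in A549 cells against 68.9 ± 6.44 CPM in H23 cells, which is -1.15 ± 0.10 (SE) as log2 fold.

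ACADVL encodes the very long-chain acyl-CoA dehydrogenase, which opens the oxidation of long fatty acids in mitochondria, and the start of its standard reading frame encodes the signal for import into mitochondria. That standard form, NM_000018, held 79.3, 74.7 and 80.9% in the A549 libraries, against 9.72, 17.1 and 23.9% in the H23 libraries. NM_001270447, with its other start, held 0, 6.81 and 0% in A549 and 81.9, 73.8 and 68.6% in H23. It was at 0, 14.8 and 0 CPM in A549, against 311, 306 and 292 CPM in H23, which were close to each other. NM_000018 was at 175 ± 9.26 CPM in A549 cells against 72.0 ± 33.3 CPM in H23 cells. A further form, NM_001270448, was at 34.5 ± 3.03 CPM in A549 cells against 18.9 ± 5.60 CPM in H23 cells, and NM_001033859 was at 9.86 ± 1.23 CPM in A549 cells against 16.1 ± 3.16 CPM in H23 cells. Summed over its transcripts, the gene stood at 224 ± 6.30 CPM in A549 cells against 410 ± 25.2 CPM in H23 cells, which is -0.87 ± 0.08 (SE) as log2 fold.

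NET1 loads RhoA with GTP, and the shorter protein made from NM_005863 is known as NET1A. NM_005863 held 58.8, 60.9 and 65.2% in the A549 libraries and had 0 counts in all H23 libraries. In H23 all NET1 transcripts were assigned to NM_001047160. On GENCODE's annotation NM_005863 starts 34060 bases downstream of NM_001047160, and it exchanges 255 coding bases at the start of the long form for 93 of its own. NM_005863 was at 89.5, 91.4 and 97.7 CPM in A549 and was at least 3410-fold higher there than in H23, a bound of 2239-fold without H23 replicate 1 and 2096-fold without H23 replicate 3. NM_001047160 was at 64.2, 60.1 and 53.4 CPM in A549, against 68.2, 56.3 and 62.8 CPM in H23, and the ranges overlapped. The lines thus stood apart in NM_005863 and overlapped in the other form. The total came to 152 ± 1.403 CPM in A549 cells against 62.5 ± 5.96 CPM in H23 cells, which is 1.28 ± 0.09 (SE) as log2 fold.

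RAB5B is 1 of the RAB5 GTPases that direct fusion of early endosomes. NM_002868 held 99.1, 69.9 and 100% in the A549 libraries, against 10.4, 25.1 and 22.2% in the H23 libraries. NM_001252036 held 0, 30.1 and 0% in A549 and 88.6, 74.95 and 77.5% in H23. A549 replicate 2 was the exception among the A549 libraries, and it still lay on the A549 side. Both forms have the same coding length of 645 bases. Their deposited lengths differ by 41 bases, which is the difference between their own starts of 129 bases in NM_002868 and 88 bases in NM_001252036. NM_002868 was at 42.9 ± 8.15 CPM in A549 cells against 22.6 ± 11.7 CPM in H23 cells. NM_001252036 was at 0, 14.3 and 0 CPM in A549, against 77.2, 87.5 and 101 CPM in H23, so A549 replicate 2 alone gave its A549 level. In all, the gene stood at 47.8 ± 0.536 CPM in A549 cells against 112 ± 22.4 CPM in H23 cells, which is -1.23 ± 0.15 (SE) as log2 fold.

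SNAPC2 is a subunit of the complex that starts transcription of small nuclear RNA genes. Its coding form NM_003083 held 78.7, 84.9 and 65.2% in the A549 libraries, against 11.0, 12.1 and 18.04% in the H23 libraries. NR_030717, which RefSeq files as non-coding, made up the rest, 23.8 ± 10.1% in A549 and 86.3 ± 3.79% in H23. The coding form was at 12.7, 13.7 and 10.4 CPM in A549, against 6.18, 7.93 and 11.3 CPM in H23, and the ranges overlapped. The non-coding form was at 3.51 ± 1.46 CPM in A549 cells against 49.1 ± 3.86 CPM in H23 cells, 14.02 times as high in H23. Summed over its transcripts, the gene stood at 15.8 ± 0.241 CPM in A549 cells against 57.5 ± 4.60 CPM in H23 cells, which is -1.87 ± 0.10 (SE) as log2 fold, so the total differed far more than the coding form did.

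C6orf120 had the lowest total of the 9 genes per length, at 7.23 ± 0.327 TPM in A549 cells and 8.50 ± 1.01 TPM in H23 cells. NM_001029863 of 4246 bases held 90.8, 91.4 and 100% in the A549 libraries, against 18.3, 37.0 and 39.4% in the H23 libraries. NM_001317342 of 4006 bases made up the rest. NM_001029863 was at 26.0 ± 0.676 CPM in A549 cells against 6.75 ± 1.62 CPM in H23 cells, and NM_001317342 at 1.61 ± 1.41 CPM in A549 cells against 14.6 ± 5.17 CPM in H23 cells. The total came to 29.3, 27.96 and 25.5 CPM in A549 cells against 25.5, 19.2 and 19.5 CPM in H23 cells. The ranges met at H23 replicate 1. The log2 fold of the total was 0.37 ± 0.14 (SE), and -0.20 on log2(TPM + 1).

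**Figure D3:**
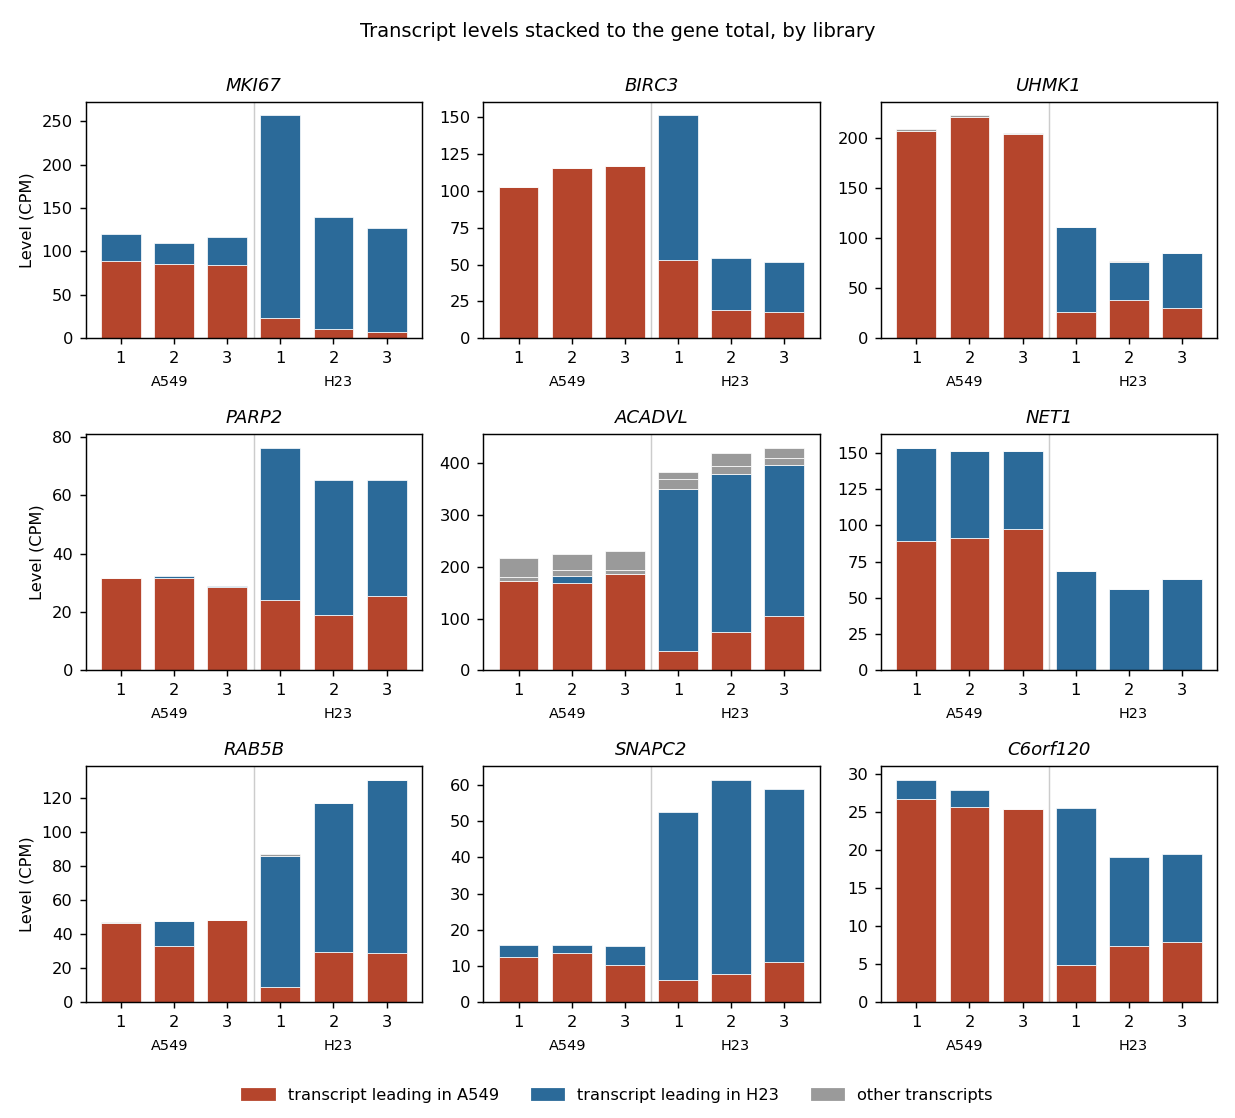
Transcript levels in CPM (vertical axis) stacked to the gene total, in the 3 A549 and 3 H23 libraries. The blue part is the main difference between the lines in PARP2, ACADVL, RAB5B and SNAPC2, the red part in NET1, where the blue part averages 59.2 CPM in A549 cells against 62.5 CPM in H23 cells. In PARP2, ACADVL and RAB5B the red part is also higher in A549, in ACADVL at 175 CPM against 72.0 CPM in H23. In MKI67, BIRC3, UHMK1 and C6orf120 both parts differ as well, in opposite directions. The blue part differs by more CPM in MKI67, and the red part in BIRC3, UHMK1 and C6orf120.

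Seen together, the switches took several forms. The A549 lead was higher in A549 without overlap of the libraries in 8 of the 9 genes, SNAPC2 being the exception, and the H23 lead was lower in A549 without overlap in 8, NET1 being the exception. Over all 50818 transcripts with any count, 46.1% had ranges that did not overlap, counting both directions. That set is not a matched background, because it takes in transcripts with very few counts. The leads were chosen by their shares in this same contrast, in genes above a TPM minimum. No excess can therefore be read from 8 of the 9 genes beside 46.1%. Estimated shares in BIRC3 were close to identical among libraries of a line. The SD of the leading share in its own line reached 17.1 points in A549, for RAB5B, and 13.3 points in H23, for UHMK1. Taking shares of read counts in place of length-corrected shares left the same leader in all 54 pairs of gene and library. The nearest pair was UHMK1 in H23 replicate 2, with count shares of 49.88% for the H23 lead and 49.21% for the A549 lead, or 1145 and 1130 estimated counts.

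The gene totals did not move in a common direction. They were higher in A549 for UHMK1, NET1, BIRC3 and C6orf120 and lower in A549 for the other 5 genes, with log2 folds of -1.87 to 1.28 and a median of -0.60, against a median of -0.03 over 15426 tested genes. The library ranges did not overlap for 7 of the 9 genes, BIRC3 and C6orf120 being the exceptions, and 82.0% of all tested genes had ranges that did not overlap. In the gene test 37.6% of all genes were called higher and 39.6% lower in A549. All 9 genes passed the filter on low counts. On log2(TPM + 1), where the median over all tested genes was -0.47, BIRC3 and C6orf120 turned to the H23 side and the other 7 kept their sign.

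The A549 lead was the longer transcript in 7 of the 9 genes, PARP2 and NET1 being the exceptions. The differences were 2560 bases in BIRC3, 1080 in MKI67, 341 in UHMK1, 240 in C6orf120, 103 in SNAPC2, 64 in ACADVL and 41 in RAB5B, against -39 in PARP2 and -89 in NET1. Among all 208 switched genes the A549 lead was longer in 164, shorter in 40 and of equal length in 4. The share with a longer A549 lead, 78.8%, was 74.8 to 83.3% over the other settings and 77.8% without H23 replicate 1. Gene levels moved with length as well: the median log2 fold was -0.28 in the lowest length quartile of tested genes, up to 1871 bases, and 0.37 in the highest, from 4526 bases. Deposited length less effective length, which follows the mean fragment length, was 178 to 189 bases in A549 and 168 to 174 bases in H23. The part of fragment length and of gene length in the switches was not tested.

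**Figure D4:**
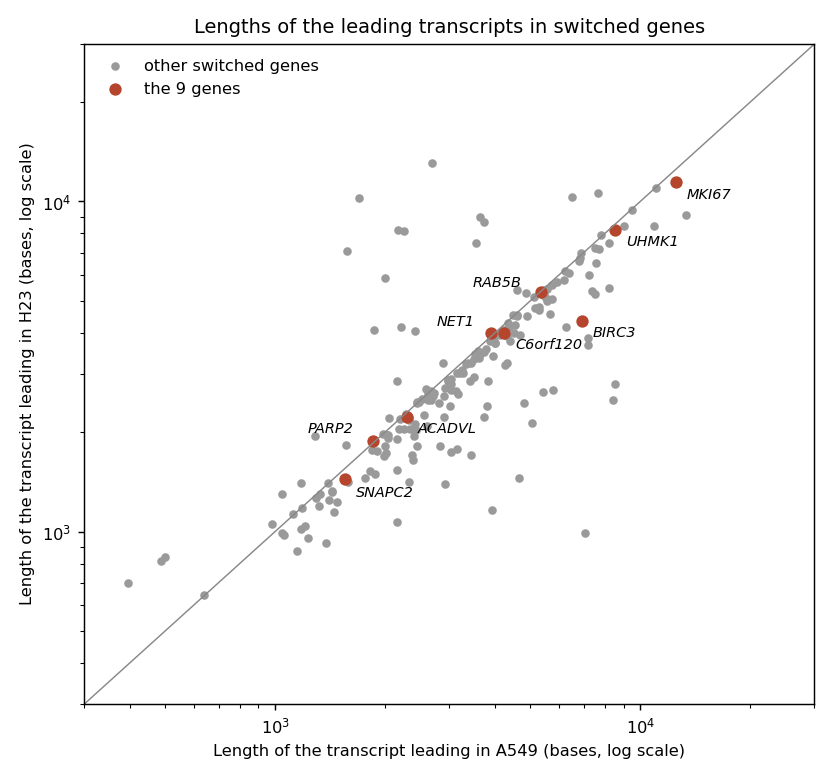
Length of the transcript that leads in A549 (horizontal, bases, log scale) against that which leads in H23 (vertical, bases, log scale) for 208 switched genes, with a line of equal length. Points below the line have the longer lead in A549, which is the case for 164 genes and for 7 of the 9 named genes.

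Relatives of the 9 genes, listed as 130 genes in 8 families that share a pathway or a protein family with 8 of them, were tested with edgeR's quasi-likelihood test over all genes. Of 127 tested relatives, 52 were higher and 44 lower in A549, or 75.6%, beside 77.2% of all tested genes. On log2(TPM + 1) these counts were 33 higher and 68 lower. For all genes the calls were 5801 higher and 6109 lower, and 3282 higher and 7148 lower on log2(TPM + 1). In the transcript usage test 24 of 81 relatives passed, or 29.6%, beside 25.8% of all genes. Of 66 relatives with 2 or more transcripts and 5 TPM in every library, 6 were switched by the same rule, or 9.09%, beside 4.15% of all such genes, and the difference was not tested. The longer form led in A549 in all 6, as it did in 78.8% of all switched genes. BIRC2, the near relative of BIRC3, was 1 of them: NM_001166 of 3796 bases held 84.4 ± 6.27% in A549 and 29.7 ± 7.19% in H23, while NM_001256166 of 2393 bases held 12.9 ± 6.07% in A549 and 63.4 ± 9.64% in H23. AKAP13, an anchor of protein kinase A that also activates RhoA, had NM_007200 at 87.1 ± 3.74% in A549 and 28.99 ± 5.71% in H23. ARHGEF25, another exchange factor for small GTPases, had NM_182947 at 70.8 ± 13.5% in A549 and 24.9 ± 3.32% in H23. The others were RHOC, ETFDH and VPS45, with A549 leads at 51.4, 78.8 and 62.9% in A549 and 29.04, 41.5 and 42.7% in H23. In the usage test BIRC2, RHOC, ARHGEF25 and AKAP13 passed, and ETFDH and VPS45 did not.

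Around BIRC3, 7 of 13 genes of the inhibitor of apoptosis family and its signalling complex were higher in A549 and 4 lower. The giant inhibitor BIRC6 was at 238 ± 7.46 CPM in A549 cells against 49.3 ± 6.16 CPM in H23 cells (log2 2.27 ± 0.11, edgeR adjusted p = 3.51e-06), and BIRC7 had a log2 fold of 2.86 ± 0.35. BIRC7 was low, at 1.745 ± 0.09851 CPM in A549 cells against 0.2375 ± 0.1142 CPM in H23 cells, near the floor there. RIPK1, a kinase of TNF signalling, and MAP3K14, the kinase that cIAP proteins mark for destruction, were lower in A549, with log2 folds of -1.10 ± 0.14 and -0.85 ± 0.10. The total of BIRC2, at log2 -0.33 ± 0.31, missed the threshold (edgeR adjusted p = 0.355, with values between 0.0121 and 0.542 in the alternatives). It passed as higher in A549 without H23 replicate 1, at 0.15, and as lower on log2(TPM + 1), at -1.07.

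Around PARP2, 6 of 20 tested genes were higher, 6 lower and 8 did not pass. PARP14, an ADP-ribosyltransferase of interferon responses, was at 87.3 ± 0.961 CPM in A549 cells against 6.39 ± 1.69 CPM in H23 cells (log2 3.77 ± 0.20, edgeR adjusted p = 4.63e-06), and PARP9 had a log2 fold of 1.56 ± 0.14. PARP8 and PARP11 were lower in A549, with log2 folds of -3.28 ± 0.35 and -2.20 ± 0.18. PARP8 was near the floor in A549, at 0.2466 ± 0.09936 CPM from 18 counts, against 2.448 ± 0.6445 CPM in H23 cells. Among the oxidation genes around ACADVL, 4 of 17 were higher and 8 lower. CPT1A, which loads fatty acids for entry into mitochondria, was at 57.5 ± 2.44 CPM in A549 cells against 276 ± 37.4 CPM in H23 cells (log2 -2.26 ± 0.12, edgeR adjusted p = 5.06e-06), and CPT2 had a log2 fold of -1.64 ± 0.12. ACADSB, a relative of ACADVL for short branched chains, and ETFA, which takes up the electrons, were higher in A549, at 1.42 ± 0.21 and 1.3 ± 0.14. ETFDH did not pass (log2 0.23 ± 0.14, edgeR adjusted p = 0.157, with values between 0.000423 and 0.509 in the alternatives). It passed at 0.37 without H23 replicate 1 and at -0.38 on log2(TPM + 1).

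Of the 23 genes around NET1, mostly exchange factors and GTPases, 11 were higher and 10 lower in A549. ARHGEF28 was at 117 ± 4.33 CPM in A549 cells against 6.79 ± 0.776 CPM in H23 cells (log2 4.10 ± 0.12, edgeR adjusted p = 4.54e-07). ECT2, which activates RhoA in cell division, had a log2 fold of 3.97 ± 0.45, and 4.65 without H23 replicate 1. ARHGEF19 and ARHGEF5 were lower in A549, with log2 folds of -2.31 ± 0.12 and -2.27 ± 0.21. RHOC and ARHGEF25 were also lower in A549, at -1.14 ± 0.09 and -0.77 ± 0.11, and AKAP13 was higher at 1.23 ± 0.17 but did not pass on log2(TPM + 1) (limma adjusted p = 0.0841, the highest of its alternatives, with a lowest of 1e-15). Of 24 genes around RAB5B, 11 were higher and 6 lower. RIN2, an activator of RAB5, was at 105 ± 3.54 CPM in A549 cells against 1.20 ± 0.193 CPM in H23 cells (log2 6.44 ± 0.14, edgeR adjusted p = 2.11e-07), and the endosome tether EEA1 had a log2 fold of 4.49 ± 0.67, or 5.85 without H23 replicate 1. RAB7A of late endosomes and RAB31 were lower in A549, with log2 folds of -2.97 ± 0.08 and -1.33 ± 0.08. VPS45 was lower at -0.34 ± 0.09 (edgeR adjusted p = 0.00893), but missed the threshold without A549 replicate 1 or 3, at 0.0559 and 0.059, with values between 1.68e-05 and 0.059 in the alternatives.

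The partners of SNAPC2 divided evenly, 4 of 9 higher and 4 lower in A549. The RNA polymerase III factor BDP1 had a log2 fold of 2.76 ± 0.41, or 3.42 without H23 replicate 1, and the subunit SNAPC3 of 1.32 ± 0.11. TBP and the subunit SNAPC4 were lower in A549, at -1.08 ± 0.09 and -0.75 ± 0.15 (edgeR adjusted p = 3.14e-05 and 0.00258). Of 9 tested splice site factors around UHMK1, 4 were higher and 3 lower. U2AF1, the small subunit that reads the end of introns, was at 35.7 ± 2.79 CPM in A549 cells against 135 ± 2.04 CPM in H23 cells (log2 -1.92 ± 0.09, edgeR adjusted p = 2.7e-06), and the UHMK1 substrate SF1 had a log2 fold of -1.58 ± 0.14. U2AF1L4 and SF3B1 were higher in A549, at 0.84 ± 0.13 and 0.63 ± 0.10, and SF3B1 did not pass on log2(TPM + 1), at 0.09 (limma adjusted p = 0.283, the highest of its alternatives, with a lowest of 2.65e-14). Of 12 genes around MKI67, 5 were higher and 3 lower in A549. TOP2A, a topoisomerase of dividing cells, had a log2 fold of 1.98 ± 0.42, or 2.67 without H23 replicate 1, and the phosphatase subunit PPP1CB of 1.77 ± 0.18. PPP1CA and nucleolin, NCL, were lower in A549, at -1.58 ± 0.10 and -0.68 ± 0.10.

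**Figure D5:**
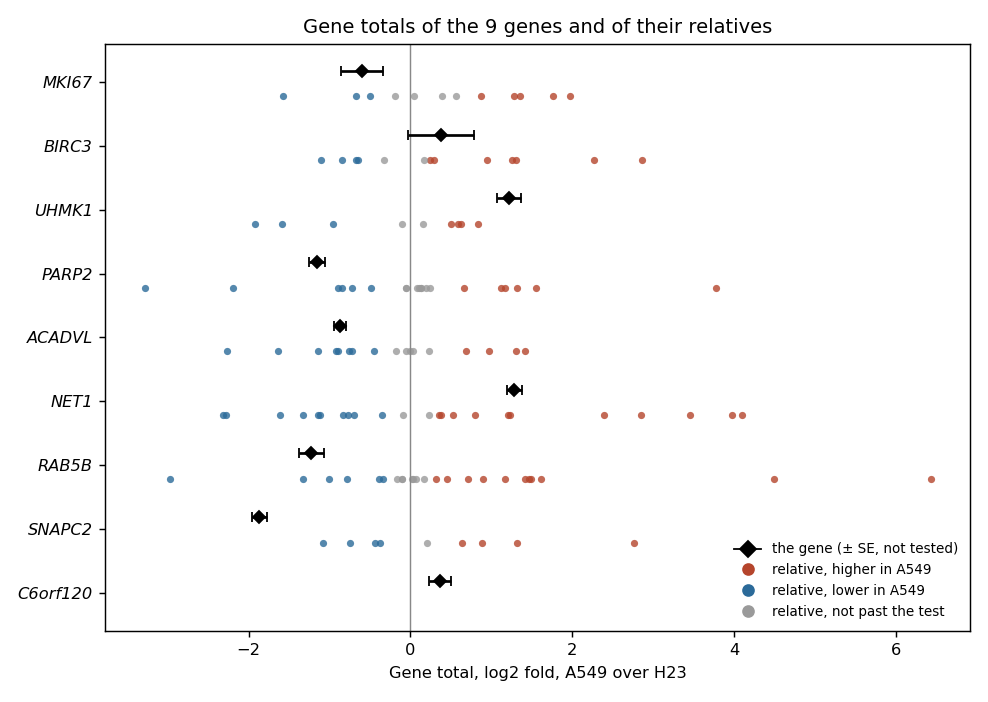
Log2 fold of gene totals, A549 over H23 (horizontal), for the 9 genes (diamonds with SE, not tested) and below each its tested relatives (points, coloured by edgeR's call). Totals of the 9 genes run from -1.87 to 1.28, and each family of relatives has genes on both sides.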

How the data were processed

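Per the submitters' processing notes, STAR 2.6.0c, RSEM 1.3.0 and the build hg19 were used, and options, annotation release and strand setting are not given in the sources used here. Expected counts, as deposited, estimate how many reads fell to a gene or transcript and carry no depth scaling. The deposited TPM are scaled for length and depth, and the deposited FPKM were not used. The deposited percent values are each transcript's share of its gene. Lengths, and other columns, are in bases, per the file headers.

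Expected counts were rounded and fitted with edgeR 4.0.16 in R 4.3.3 (filterByExpr, TMM, robust quasi-likelihood test, Benjamini-Hochberg adjustment, threshold 0.05), and transcript usage with diffSpliceDGE on 24779 transcripts. Each SE was approximated by dividing the size of the log2 fold by the root of its F statistic. limma 3.58.1 and DESeq2 1.42.0 served as alternatives, with a pseudocount of 1 for TPM. Tests were tried on simulated counts with known changes. With 3 libraries a line, exact permutation p-values are at least 0.1, so none are given. Floors cover counting error only, and RSEM's division of reads between transcripts carries an error that SDs do not show. Replicates are separate cultures. Same-numbered libraries of the lines were not paired, with correlations of their deviations from -0.03 to 0.039.

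The 9 genes, the families of relatives and the tests were chosen with earlier results of these data known. Named were the 9 genes with each transcript reaching a mean share of 5% in a line, up to 2 relatives per family and direction with the largest fold among those that passed without overlap, switched relatives and the genes beside the threshold. The relatives were found under 129 of 130 symbols or older symbols. Sequences come from GENCODE 29 transcripts on GRCh38, matched by identifier, and no coordinates are given because the files follow hg19. A further marker list is not reported here.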

Additional observations from a re-analysis of the deposited data

How the results depend on the processing

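All 9 genes stayed switched with count shares. They also stayed switched without any single library and with changes of 10 or 30 points, which was fixed in advance. Leaving out a library only loosens the rule on leaders and TPM, and the smallest change among the 9 genes was 61.4 points. At 10 TPM 6 stayed switched, and MKI67, RAB5B and C6orf120 fell out by construction. Of 126 share differences of the leading transcripts recomputed, 124 moved by less than 1 SD between replicates. Leaving out 1 of 3 libraries cannot move a line mean by 1 SD, so only the values with count shares could fail. Those that did were of BIRC3, at 64.8 and -64.8 points. Of 99 gene folds, most of them with a library left out, which limits how far they can move, 89 moved by less than 1 SD. Those that moved further were ACADVL and SNAPC2 with upper quartile in place of TMM factors, and all 9 genes but MKI67 on log2(TPM + 1). On that scale UHMK1 was at 0.62, NET1 at 0.74, PARP2 at -1.63, ACADVL at -1.45, RAB5B at -1.67 and SNAPC2 at -2.39. On log2(TPM + 1) BIRC3 and C6orf120 reversed to -0.45 and -0.20, and the cause was not tested. Among relatives ETFDH reversed to -0.38 on that scale and BIRC2 to 0.15 without H23 replicate 1, with -0.53 to 0.15 over the libraries left out. Switched genes numbered 321 at 1 TPM and 138 at 30 points, and 216 to 270 with a library left out. On log2(TPM + 1) genes higher in A549 numbered 3282, relatives higher 33 and relatives lower 68. Genes past the usage test numbered 955 with Simes and 1249 with the replicate block, relatives 10 and 14, and with a library left out 1430 to 2307 genes and 12 to 26 relatives. The block used numbers that do not pair the libraries, so it was not used beside results. The bounds given for forms at 0 counts cover depth only, and not RSEM's division of reads between transcripts. In the A549 libraries RAB5B NM_001252036 had 0, 358 and 0 counts, and ACADVL NM_001270447 had 0, 371 and 0. Without A549 replicate 2 their folds, higher in H23, went from 18.03 and 58.92 to at least 1406 and 4763. The part of read division in the forms at 0 counts was not tested. Levels of the leading transcripts with each library left out were added after seeing the data, and are given beside only some of them.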
